A study of Rattus norvegicus with 12 samples.

Results

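Messenger RNA levels of 9 genes that set the response of a cell to catecholamines were examined in adult rat ventricular myocytes (ARVMs), the contracting cells of the heart. The genes are the 3 α1-adrenoceptors Adra1a, Adra1b, and Adra1d, the β1-adrenoceptor Adrb1, the G protein-coupled receptor kinases Grk5 and Grk6, the β-arrestins Arrb1 and Arrb2, and the α-arrestin Arrdc3. They were taken by name from 17301 named genes and account for 11 of 18752 transcripts, since Grk6 is listed with 3 transcripts and each of the other 8 genes with 1. ARVMs came from male Sprague Dawley rats in 6 independent experiments, each with hearts of different animals. The cells were cultured without serum in the presence of the contraction inhibitor 2,3-butanedione monoxime. Cells received either Ad-GFP, an adenovirus that makes green fluorescent protein, or Ad-h-NR4A2, which carries full-length human NR4A2 behind the cytomegalovirus promoter. NR4A2 is an orphan nuclear receptor of the NR4A subgroup. Both viruses were given at a multiplicity of infection (MOI) of 50, RNA was collected 48 h later, and the 6 samples of each group carry the numbers 24 to 29, by which they are paired here. Every sample was thus transduced, and the comparison addresses how forced NR4A2 expression remodels adrenergic receptor transcripts. The age of the animals is not given in the labels. By the paper's methods, cells at 48 h either went to RNA sequencing or were given the agonist isoproterenol. The cultures sequenced thus received no adrenergic agonist.

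Adrenoceptors are G protein-coupled receptors for norepinephrine and epinephrine. In cardiomyocytes, β1-adrenoceptors couple to Gs and adenylyl cyclase and raise the rate and force of contraction, whereas α1-adrenoceptors couple to Gq and phospholipase C and are tied to growth and survival. Receptor kinases phosphorylate the agonist-bound receptor, arrestins then bind it, uncouple it from its G protein and carry it into clathrin-coated pits, and α-arrestins such as Arrdc3 bring ubiquitin ligases to receptors and other membrane proteins. The balance between these proteins sets how strongly and for how long the cell responds.

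Transcript levels were given as FPKM, which is fragments scaled to the length of the transcript model and to the mapped fragments of the sample. Comparisons between genes on this scale depend on the model listed for each. Among the 9 genes these models ran from 1245 nucleotides (Arrdc3) to 2947 (Adra1d), with 1401 for Adrb1. How complete they are was not tested. The depth recovered from the low values was 18800000 to 28000000 fragments per sample. Nr4a2 had 0.884 ± 0.309 FPKM (SD, n = 6) in Ad-GFP samples and 524 ± 70.3 FPKM in Ad-h-NR4A2 samples, and no sample went against its label. Fragments were aligned to the rat genome, and human and rat transcripts of this gene were not told apart. Among 5 cardiomyocyte markers the summed level was 16011.6 to 20693.4 FPKM with Ad-GFP and 14631.7 to 17356.3 with Ad-h-NR4A2, and 1 of 5, Myh7, passed the criteria below as lower. Among 12 nonmyocyte markers the summed level was 34.0 to 60.4 and 54.3 to 90.9 FPKM. Of these 12 markers 10 could be tested, and 2 passed, 1 in each direction, against 15.2% of all genes tested. The macrophage colony-stimulating factor receptor Csf1r rose (from 10.1 to 40.2 FPKM) and the smooth muscle myosin Myh11 fell (from 3.05 to 1.97 FPKM). The macrophage marker Cd68 had 0.463 and 0.482 FPKM and did not pass. The higher sum thus rests on Csf1r and not on the list as a whole, with a median log2 fold change of -0.157. Col1a2 was listed at 0 in all samples, and Ptprc did not exceed 0.0489 FPKM in any sample. The part of these shifts in the results was not tested.

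For 6 of the 9 genes a promoter sequence was at hand, from RefSeq on the GRCr8 build, which is not the build of the expression values. The 250 bases before the annotated start are shown for both genes that rose, Adrb1 (chr1:265776853-265777102, plus strand) and Grk5 (chr1:270014086-270014335, plus strand), and for both α1-adrenoceptors at hand, Adra1b (chr10:28814348-28814597, minus strand) and Adra1d (chr3:139262332-139262581, minus strand). Each is written 5′ to 3′, and capitals mark matches to any of the motifs searched.
Adrb1: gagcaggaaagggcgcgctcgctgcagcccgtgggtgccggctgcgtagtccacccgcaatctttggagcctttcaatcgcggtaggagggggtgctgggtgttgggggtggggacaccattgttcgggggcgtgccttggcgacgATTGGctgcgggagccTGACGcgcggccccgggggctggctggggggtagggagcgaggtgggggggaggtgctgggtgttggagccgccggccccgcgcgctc
Grk5: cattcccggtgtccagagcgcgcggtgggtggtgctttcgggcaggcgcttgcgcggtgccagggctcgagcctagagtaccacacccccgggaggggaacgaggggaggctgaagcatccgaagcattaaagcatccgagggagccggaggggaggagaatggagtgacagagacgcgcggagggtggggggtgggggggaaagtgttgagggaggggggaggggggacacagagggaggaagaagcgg
Adra1b: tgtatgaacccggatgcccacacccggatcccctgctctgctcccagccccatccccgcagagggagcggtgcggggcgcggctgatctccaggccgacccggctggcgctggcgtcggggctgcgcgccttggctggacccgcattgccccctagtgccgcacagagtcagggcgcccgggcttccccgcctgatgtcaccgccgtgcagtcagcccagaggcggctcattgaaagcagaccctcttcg
Adra1d: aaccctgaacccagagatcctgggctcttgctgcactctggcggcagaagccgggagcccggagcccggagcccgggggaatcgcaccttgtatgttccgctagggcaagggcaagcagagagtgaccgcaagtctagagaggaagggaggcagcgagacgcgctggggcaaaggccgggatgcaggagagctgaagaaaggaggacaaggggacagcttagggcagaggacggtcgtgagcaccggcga
These windows, together with those of Grk6 and Arrdc3, had more G and C than most, with 64.0% to 72.4% against a median of 51.2% over 33469 promoter windows, and 16 to 33 CpG dinucleotides against a median of 5. The NBRE, to which NR4A receptors can bind as monomers (AAAGGTCA on either strand), was found in 0 of 6 windows and in 1.24% of all windows, and its half-site AGGTCA, which lies within it, in 0 of 6 and 14.1%. The full cAMP response element TGACGTCA was found in 0 of 6 and 1.59%, and its half-site TGACG, which lies within it, in Adrb1 alone, 88 bases before the start, and in 18.2% of all windows. Adrb1 also holds a CCAAT box read from the other strand 104 bases before the start, a motif found in 3 of 6 windows (Adrb1, Grk6, and Arrdc3) and in 34.0% of all, and the GC box GGGCGG was found in 2 of 6 (Grk6 and Arrdc3) and in 30.5% of all. These are matches of letters in a short window and not binding sites.

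With Ad-GFP, mean FPKM of the 9 genes ran from 3.31 to 36.0. Arrdc3 was highest at 36.0 ± 6.88 FPKM (SD, n = 6), followed by Grk5 at 28.1 ± 8.02 and Adra1b at 27.9 ± 4.19, and the ranges of these genes overlapped, although Arrdc3 was higher than both others in 6 of 6 samples. Adra1a (17.4 ± 1.81) lay below Adra1b and above Adra1d (12.1 ± 2.53) in 6 of 6 samples without overlap. Adra1d, Adrb1 (9.31 ± 2.11), and Grk6 (7.32 ± 0.806) overlapped with their neighbors in that order. The β-arrestins were lowest, Arrb2 with 4.82 ± 0.655 and Arrb1 with 3.31 ± 0.785 FPKM, and Arrb2 was higher than Arrb1 in 6 of 6 samples although their ranges overlapped. All 9 genes were well within the range of expressed genes, since 29.1% (Arrb1) to 76.0% (Arrdc3) of 10950 genes tested had a lower mean. With Ad-h-NR4A2 the order was another one. Grk5 stood alone at the top with 79.5 ± 11.1 FPKM, Arrdc3 (18.7 ± 2.24), Adrb1 (14.7 ± 2.37), and Adra1b (13.8 ± 0.918) followed with overlapping values, and Adra1a, Arrb2, Adra1d, Grk6, and Arrb1 had 3.79 to 6.53 FPKM.

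**Figure D1:**
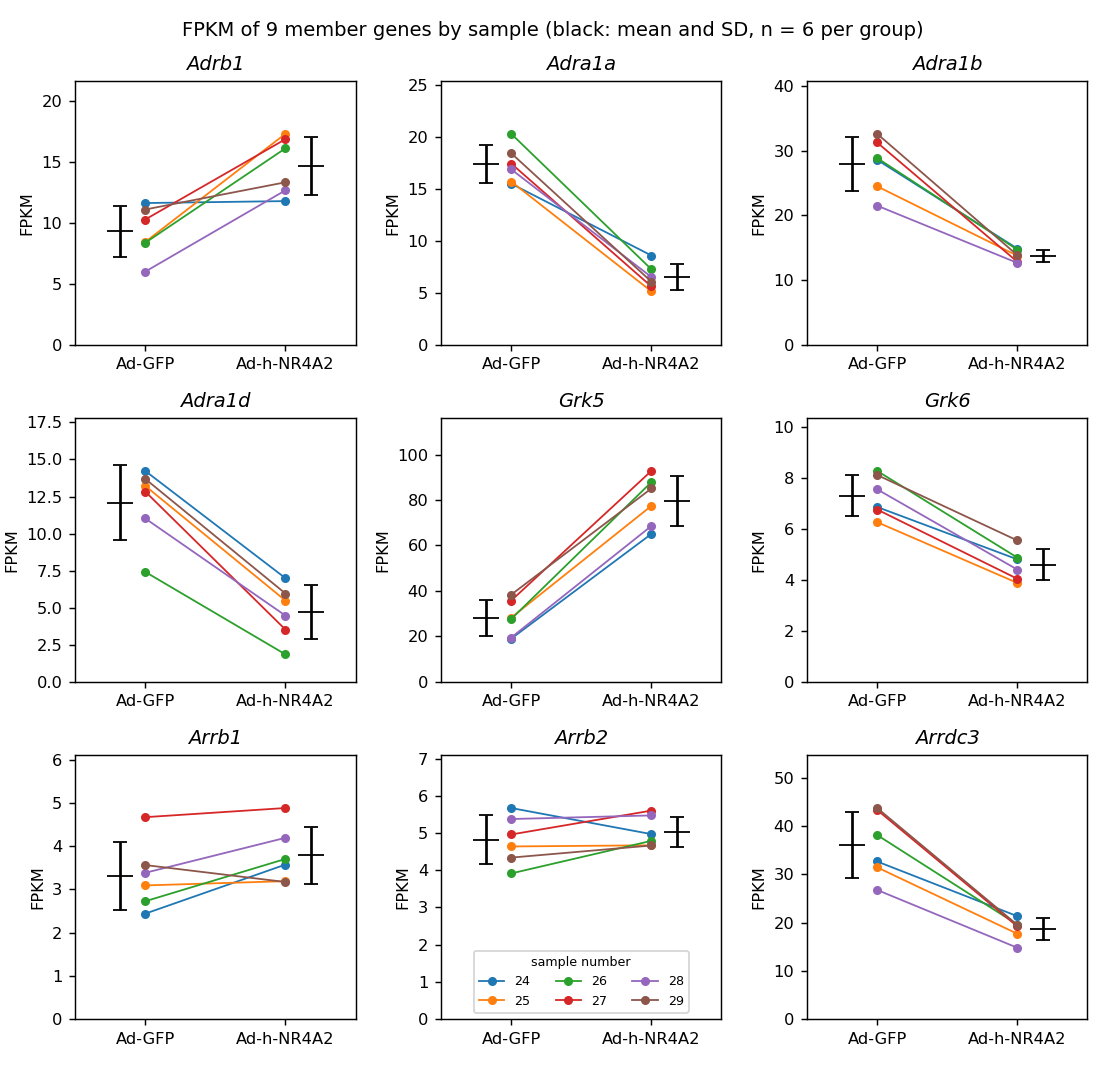
FPKM (y axis, linear from 0) of the 9 genes in Ad-GFP and Ad-h-NR4A2 samples (x axis), 1 panel per gene; colored points are samples, lines join samples of the same number (24 to 29), and black marks give mean and SD (n = 6 per group). The lines of Adra1a, Adra1b, Adra1d, Grk6, and Arrdc3 all run down and those of Grk5 all run up, while the lines of Arrb1 and Arrb2 cross each other, and that of Adrb1 sample 24 is almost level.

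All 3 α1-adrenoceptors, which couple to Gq, fell with Ad-h-NR4A2. A gene was taken as changed when the adjusted p was below 0.05 (limma on log2(FPKM + 0.1), Benjamini-Hochberg over 10950 genes) and the group means differed at least 1.5-fold; 15.2% of all genes tested passed these criteria, 7.94% as higher and 7.24% as lower. Adra1a (chromosome 15, 48203507 to 48295024, Rn5) is a subtype linked to protection of cardiomyocytes. It ranged from 15.5 to 20.3 FPKM with a median of 17.2 in Ad-GFP samples, and from 5.14 to 8.59 with a median of 6.29 in Ad-h-NR4A2 samples. The groups did not overlap, and sample 24 had both the lowest Ad-GFP value and the highest Ad-h-NR4A2 value. The ratio of means was 0.375, and the log2 fold change was -1.41 (SE 0.11, 95% CI -1.66 to -1.17), with an adjusted p of 5.62e-07 (limma). By pair the ratio was 0.554 in pair 24 and 0.321 to 0.386 in the other 5.

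Adra1b (chromosome 10, 29233972 to 29291344), the most abundant α1-adrenoceptor here, ranged from 21.5 to 32.6 FPKM (median 28.7) with Ad-GFP and from 12.6 to 14.9 FPKM (median 13.8) with Ad-h-NR4A2. The groups stood apart, and the Ad-h-NR4A2 samples were close together, with a coefficient of variation of 6.67% against 15.01% in Ad-GFP samples. This came to a log2 fold change of -1.002 (95% CI -1.20 to -0.80) and an adjusted p of 2.00e-06 (limma), and the pair ratio was 0.410 to 0.588. Adra1d (chromosome 3, 130621199 to 130637207), the third subtype, ranged from 7.42 to 14.2 FPKM (median 13.03) with Ad-GFP and from 1.85 to 6.99 FPKM (median 4.97) with Ad-h-NR4A2. Its groups did not overlap, and sample 26 was lowest and sample 24 highest in both. The log2 fold change was -1.42 (SE 0.27, 95% CI -2.01 to -0.83), with an adjusted p of 9.45e-04 (limma), and all 6 pairs were lower, with ratios of 0.249 to 0.491.

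The depth behind the α1-adrenoceptors was 373 to 655 fragments per Ad-GFP sample for Adra1a, 1080 to 2147 for Adra1b, and 452 to 1068 for Adra1d, and 155 to 235, 657 to 883, and 125 to 420 in the samples with Ad-h-NR4A2. Of the summed level of the 3 subtypes, Adra1a made up 30.5% in Ad-GFP samples and 26.1% in Ad-h-NR4A2 samples, Adra1b 48.4% and 55.4%, and Adra1d 21.1% and 18.5%, with overlapping groups in each case. By pair the share of Adra1b was higher in 5 of 6, by a mean of 6.98 percentage points (SD of pair differences 4.54), and that of Adra1a was lower in 5 of 6 (mean difference -4.42, SD 3.49). The ratio of Adra1a to Adra1b was 0.633 ± 0.0968 and 0.473 ± 0.0716 (SD, n = 6) and lower in 5 of 6 pairs. These shares were not tested. For comparison, the ratio of means of the 5 cardiomyocyte markers was 0.678 for Myh6, 0.563 for Myh7, 0.833 for Tnnt2, 0.857 for Tnni3, and 1.17 for Actn2. In RNA from whole cultures, fewer cells of a type and less RNA per cell cannot be told apart.

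Adrb1, the main β-adrenoceptor subtype of ventricular myocytes, moved the other way. Its gene (chromosome 1, 284917872 to 284919272, Rn5) is a single exon, as the transcript model of 1401 nucleotides is as long as the locus. Values were 6.004 to 11.6 FPKM (median 9.37) with Ad-GFP and 11.8 to 17.3 FPKM (median 14.8) with Ad-h-NR4A2, from 196 to 386 and 316 to 588 fragments. The groups did not overlap, but the highest Ad-GFP value, that of sample 24, lay just under the lowest Ad-h-NR4A2 value, also of sample 24. The ratio of means was 1.58, and the log2 fold change was 0.67 (SE 0.15, 95% CI 0.34 to 1.00), with an adjusted p of 0.00340 (limma). By pair the ratio was 1.01 in pair 24, 1.20 in pair 29, 1.64 in pair 27, 1.93 in pair 26, 2.05 in pair 25, and 2.11 in pair 28. Adrb1 was the member closest to the 1.5-fold limit: without Ad-GFP sample 28, its lowest value, the ratio was 1.47 and the gene no longer passed as changed, with a log2 fold change of 0.55 and an adjusted p of 0.00394 (limma).

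The ratio of β1- to α1-adrenoceptor transcripts was taken as Adrb1 FPKM over the summed FPKM of Adra1a, Adra1b, and Adra1d, so that the β side is Adrb1 alone. With Ad-GFP, α1-adrenoceptors made up most of the transcripts, 57.4 ± 5.52 FPKM in sum (SD, n = 6), and the ratio was 0.161 ± 0.0260, from 0.121 in sample 28 to 0.200 in sample 24. With Ad-h-NR4A2 the sum was 25.01 ± 2.94 FPKM and the ratio 0.600 ± 0.144, from 0.388 in sample 24 to 0.770 in sample 27. The groups did not overlap, and α1-adrenoceptor transcripts remained in excess in 6 of 6 Ad-h-NR4A2 samples. On the log2 scale the ratio went from -2.65 ± 0.24 to -0.77 ± 0.37, a difference of 1.88 with an SD of 0.51 over pairs. All 6 pairs were higher, by 1.94-fold in pair 24 to 4.61-fold in pair 27. This ratio is a description of the 4 receptors above and was not tested.

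**Figure D2:**
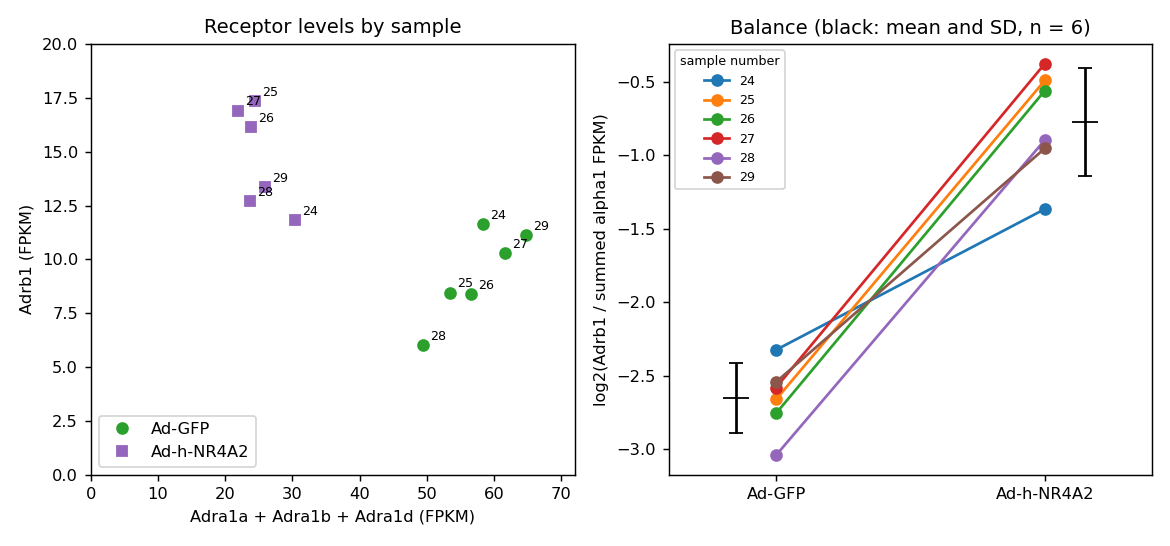
Left, Adrb1 FPKM (y axis) against the summed FPKM of Adra1a, Adra1b, and Adra1d (x axis) for each sample, circles for Ad-GFP and squares for Ad-h-NR4A2, with the sample number beside each point; right, log2 of the ratio of Adrb1 to the summed α1-adrenoceptors by group, with lines joining same-numbered samples and black marks for mean and SD (n = 6). The Ad-h-NR4A2 samples lie at the upper left, at a sum of 21.9 to 30.4 FPKM, and the Ad-GFP samples at the lower right, at 49.4 to 64.8 FPKM.

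The receptor kinases moved apart. Grk5 (chromosome 1, 289603973 to 289797684, Rn5), a membrane-bound kinase that also enters the nucleus of cardiomyocytes, ranged from 19.0 to 38.3 FPKM (median 27.9) with Ad-GFP and from 65.1 to 92.8 FPKM (median 81.3) with Ad-h-NR4A2. The lowest Ad-h-NR4A2 value was well above the highest Ad-GFP value, and samples 24 and 28 were the lowest in both groups. The increase was 1.54 on the log2 scale (SE 0.17, 95% CI 1.17 to 1.90), with an adjusted p of 8.78e-06 (limma), and the pair ratio was 2.22 to 3.52. Behind these values were 897 to 2305 and 3014 to 4579 fragments. Grk6 (chromosome 17, 11814901 to 11830526), a relative of Grk5 in the same subfamily, ranged from 6.27 to 8.29 FPKM (median 7.22) with Ad-GFP and from 3.89 to 5.55 FPKM (median 4.61) with Ad-h-NR4A2. The groups did not overlap, and all 6 pairs were lower, with ratios of 0.583 to 0.700. On the log2 scale Grk6 fell by 0.66 (95% CI of the change -0.88 to -0.45), with an adjusted p of 1.40e-04 (limma). The ratio of Grk5 to Grk6 thus went from 3.86 ± 1.12 to 17.5 ± 3.46 (SD, n = 6) and was higher in 6 of 6 pairs.

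Values for Grk6 are those of its most abundant transcript, NM_001112712, which held 91.8% to 100.0% of the summed FPKM of the gene with Ad-GFP and 93.3% to 100.0% with Ad-h-NR4A2. Its second transcript, NM_001112713, had 0.404 and 0.118 FPKM and did not pass (adjusted p = 0.254, limma over 11667 transcripts), and the third was close to 0 in both groups. When every transcript was tested by itself, 7 of the 11 transcripts passed, against 14.7% of all transcripts. How fragments are split between these overlapping transcripts is an estimate of Cufflinks, so that no fragment number is given for Grk6.

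The β-arrestins did not pass the test, and Arrdc3 fell. Arrb1 (chromosome 1, 170706122 to 170772100, Rn5) ranged from 2.44 to 4.67 FPKM (median 3.24) with Ad-GFP and from 3.17 to 4.89 FPKM (median 3.64) with Ad-h-NR4A2, from 64 to 141 and 87 to 129 fragments. The ranges overlapped widely, and 5 of 6 pairs were higher. The log2 fold change was 0.20 with a 95% CI of -0.12 to 0.53 (adjusted p = 0.314, limma), so that a ratio between 0.917 and 1.44 was within the interval. Arrb2 (chromosome 10, 56797489 to 56805282) ranged from 3.92 to 5.68 FPKM (median 4.80) and from 4.67 to 5.61 FPKM (median 4.88), from 126 to 216 and 158 to 208 fragments. Its groups overlapped too, and 5 of 6 pairs were higher. Its log2 fold change was 0.07 with a 95% CI of -0.14 to 0.27 (adjusted p = 0.607, limma), which takes in ratios from 0.909 to 1.21. The miRNA gene Mir326 shares the locus of Arrb1.

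Arrdc3 (chromosome 2, 8617992 to 8627696, Rn5), which was the most abundant of the 9 genes with Ad-GFP, ranged from 26.8 to 43.8 FPKM (median 35.4) with Ad-GFP and from 14.8 to 21.3 FPKM (median 19.4) with Ad-h-NR4A2. The groups did not overlap, and sample 28 was lowest in both. The log2 fold change was -0.93 (SE 0.12, 95% CI -1.20 to -0.67), with an adjusted p of 4.38e-05 (limma), and the pair ratio was 0.443 to 0.652. These values rest on 638 to 1329 and 413 to 524 fragments.

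All 9 genes had values above 0 in 12 samples and entered the test. Of these, 7 passed as changed, against 15.2% of all genes tested. Among them 2 passed as higher and 5 as lower, against 7.94% and 7.24% of all genes. These same 7 were the ones with an adjusted p below 0.05 (limma) at any fold, against 40.9% of all genes tested. The 6 values of each group did not overlap in these 7 genes, against 21.5% of all genes tested, and the same 7 had the same direction in all pairs, against 53.2% of all genes. An exact permutation test of each gene by itself, two-sided and with samples taken as unpaired, gave p = 0.00216 for each of the 7. That value is the smallest possible with 6 against 6 samples. It follows from groups that do not overlap and so adds nothing to the count above. The same test gave 0.240 for Arrb1 and 0.470 for Arrb2. The median absolute log2 fold change was 0.93, against 0.20 over all genes tested, and the median log2 fold change was -0.66, against -0.02. The 9 genes were chosen with earlier results of these data known.

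**Figure D3:**
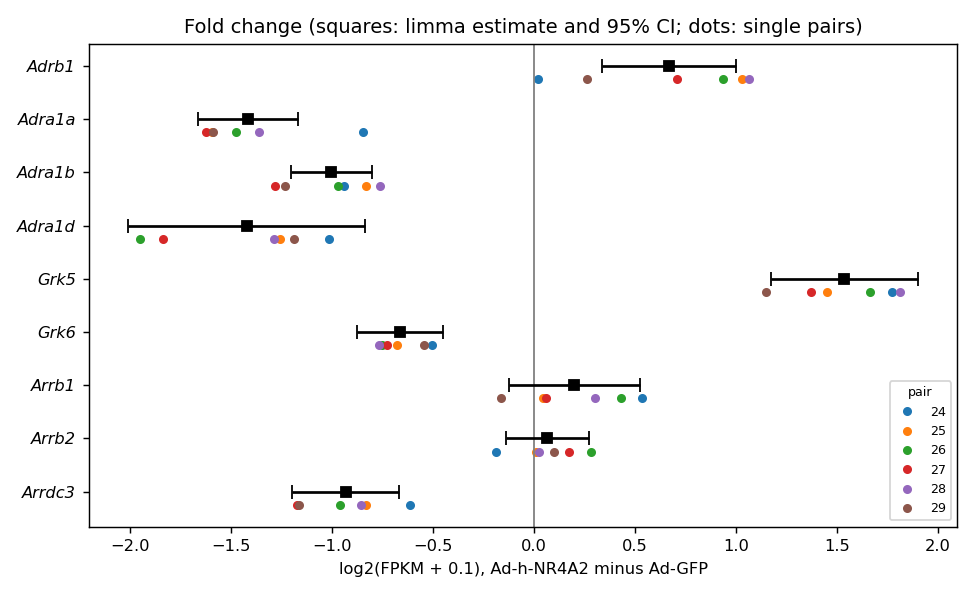
Difference of log2(FPKM + 0.1), Ad-h-NR4A2 minus Ad-GFP (x axis), for each of the 9 genes (y axis); squares and bars give the limma estimate with its 95% CI, and colored dots give the 6 same-numbered pairs. The bars of Arrb1 and Arrb2 cross 0, and those of the other 7 genes do not, while the pair 24 dot of Adrb1 lies next to 0.

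Other genes of these families were looked at by name, whether they passed or not. Of 4 other adrenoceptors, Adra2a had 0.0738 and 0.0426 FPKM and did not pass (adjusted p = 0.172, limma), Adra2b and Adra2c did not exceed 0.0251 FPKM in any sample, and Adrb3 was listed at 0 in all samples. Adrbk1 (GRK2), the kinase first described for β-adrenoceptors, had 34.5 ± 1.45 and 29.7 ± 3.07 FPKM (SD, n = 6). With Ad-GFP it was higher than Grk5 in 4 of 6 samples, with overlapping ranges. It was lower in 6 of 6 pairs with an adjusted p of 0.0141 (limma) but stayed within the 1.5-fold limit, with a ratio of 0.861. Adrbk2 (GRK3) rose from 1.20 ± 0.659 to 3.33 ± 0.659 FPKM without overlap between groups, which is 1.54 on the log2 scale (SE 0.28), with an adjusted p of 6.82e-04 (limma). Grk4 had 1.74 and 1.72 FPKM. The ratio of Grk5 to Adrbk1 went from 0.817 ± 0.240 to 2.73 ± 0.599, so that Grk5 was higher than Adrbk1 in 6 of 6 Ad-h-NR4A2 samples. Among 7 other arrestins, of which 4 could be tested, 2 passed as lower, against 7.24% of all genes tested. Txnip, an α-arrestin that binds thioredoxin and limits glucose uptake, fell from 118 ± 54.9 to 54.6 ± 13.6 FPKM. Arrdc4 fell from 3.17 ± 0.736 to 1.97 ± 0.340 FPKM. In both genes the groups overlapped. Arrdc1 had 4.07 and 5.88 FPKM, a ratio of 1.45 within the limit, and Arrdc2 had 1.80 and 1.74 FPKM.

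Of 33 genes for receptor trafficking and ubiquitination, 2 passed as changed, 1 in each direction, against 15.2% of all genes. Vps26b, a subunit of retromer, which returns receptors from endosomes, rose from 28.6 ± 1.45 to 50.5 ± 5.62 FPKM (log2 fold change 0.81), and Dlg1, a scaffold that binds Adrb1, fell from 28.7 ± 3.68 to 18.5 ± 2.28 FPKM (log2 fold change -0.63). Clathrin, dynamin, adaptor, and Rab genes on that list were within the 1.5-fold limit. Of these, Cltc and Dnm2 were lower without overlap between groups, with ratios of 0.808 and 0.850, and the groups of the others overlapped. At any fold, 13 of the 33 genes had an adjusted p below 0.05 (limma), against 40.9% of all genes tested.

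Downstream of Adrb1, 7 of 21 genes passed, 4 as higher and 3 as lower, against 7.94% and 7.24% of all genes tested. The adenylyl cyclase Adcy6 rose with a log2 fold change of 1.72 (SE 0.15), the regulatory subunit of protein kinase A Prkar2b rose from 0.939 ± 0.250 to 3.08 ± 0.767 FPKM, and the cAMP phosphodiesterase Pde4d rose from 9.97 ± 1.001 to 21.6 ± 3.02 FPKM. Named after their values were seen, since few genes passed, the phosphodiesterase Pde3a rose from 19.3 to 32.1 FPKM. Phospholamban Pln, the ryanodine receptor Ryr2, and the calcium channel Cacna1c, also named afterward, fell with ratios of 0.611, 0.624, and 0.626. The groups of Pln overlapped. Downstream of α1-adrenoceptors, 10 of 19 genes tested passed, 7 as higher and 3 as lower, beside the same 7.94% and 7.24% of all genes. The regulator of G protein signaling Rgs4 rose from 0.280 ± 0.0474 to 1.85 ± 1.10 FPKM, the phospholipase Plcb1 rose from 0.978 ± 0.303 to 3.16 ± 0.454 FPKM, and protein kinase C-α (Prkca) rose from 6.47 ± 0.551 to 14.2 ± 2.05 FPKM. Likewise named afterward, Plcb4, Itpr1, Rgs2, and Dgkz rose with ratios of 1.78, 1.51, 1.64, and 1.60. Gna13, Prkcd, and Prkce, also named afterward, fell with ratios of 0.638, 0.514, and 0.637. The groups of Rgs2 and of Prkcd overlapped. Thus, while all 3 α1-adrenoceptors fell, genes downstream of them passed in both directions, 7 as higher and 3 as lower.

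**Figure D4:**
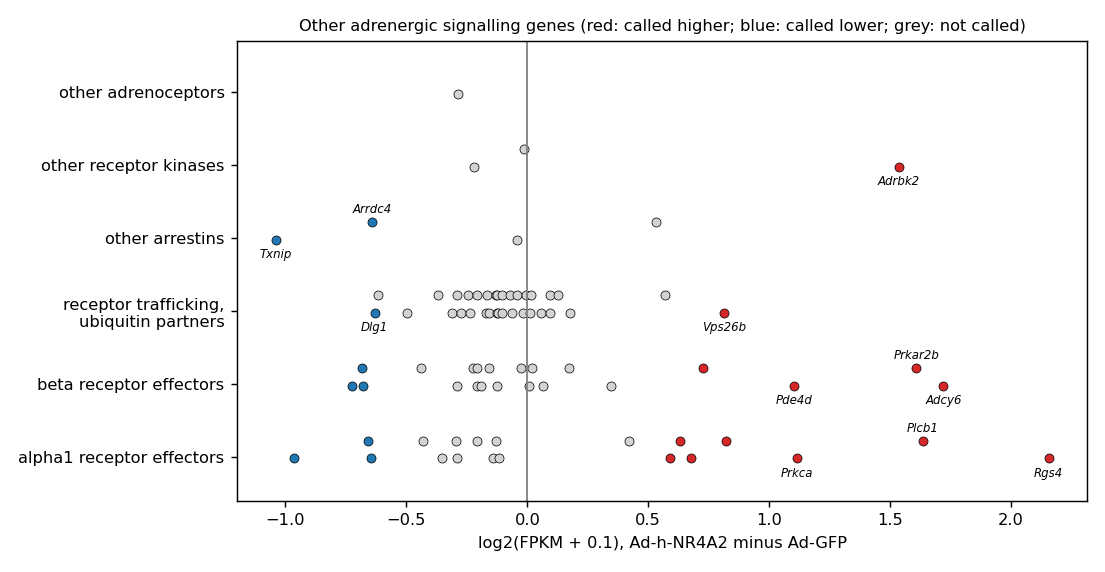
Difference of log2(FPKM + 0.1), Ad-h-NR4A2 minus Ad-GFP (x axis), for 81 other genes of adrenergic signaling in 6 lists (y axis; points of a list are spread vertically for legibility only); red points passed as higher, blue as lower, and gray points did not pass. Of the 81 genes, 13 passed as higher and 9 as lower, against 7.94% and 7.24% of all genes tested. The trafficking list holds 1 in each direction.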

How the data were processed

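RNA sequencing covered 12 ARVM samples, 6 of them Ad-GFP and the other 6 Ad-h-NR4A2. As the paper's methods state, the authors made stranded mRNA libraries, sequenced all of them as 1 pool from both fragment ends, used STAR for alignment to Rn5, and used Cufflinks for the levels of RefSeq transcripts. As deposited, FPKM values are scaled to transcript length and mapped fragments and are not counts, so that fold changes of low genes are understated once a pseudocount is added. Groups and numbers come from the sample labels.

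A gene with several transcripts was represented by the one with the highest mean FPKM. Genes above 0 in all 12 samples (10950) were tested on log2(FPKM + 0.1) in R 4.3.3 with the limma 3.58.1 functions lmFit and eBayes (trend on), two-sided and unblocked, with Benjamini-Hochberg adjustment. The SE and CI are those of this fit. Single genes were also compared by an exact permutation test over all 924 splits, which took the samples as unpaired. The script was tested on simulated data with independent noise in each sample, so that this check does not cover the pairing of samples. Tables and plots used Python 3.11.15, pandas 2.3.3, NumPy 2.4.6, and Matplotlib 3.10.9.

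Fragment numbers were recovered from low FPKM, which step by what 1 fragment is worth at a given transcript length. Of values up to 6 fragments in transcripts of at least 800 nucleotides, 99.36% to 99.88% per sample came out whole within 0.05. They cover counting error only. The FPKM limits for single values that the files also hold were not used.

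The members and the gene lists were chosen with earlier results of these data known. Named were the 9 members, Nr4a2, of each list up to 3 changed genes with the largest absolute log2 fold change and a mean FPKM of at least 1, Adrbk1, Txnip, markers beside a result, and the 3 genes most alike to Adrb1, Adra1b, and Grk5. Other genes were named after their values were seen, where a count was small or to complete a family or list.

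The labels do not say what the numbers 24 to 29 stand for. Deviations from the group means, across genes averaging 1 FPKM or more, correlated between same-numbered samples in 6 of 6 pairs (r = 0.477 to 0.741, mean 0.618), against a mean of -0.121 over 30 differently numbered pairs, so that the numbers were taken as pairs.

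Alternatives were pseudocounts of 1 and 0.01, no filter, a mean FPKM of at least 1, summed transcripts, the TPM scale, quantile normalization, no trend, the replicate block, other fold-change limits, Adra1d left out of the α1-adrenoceptor sum, and each sample left out in turn. The promoter windows and their coordinates are those of RefSeq on GRCr8, matched by symbol (6 of 9 members).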

Additional observations from a re-analysis of the deposited data

How the results depend on the processing

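Counts moved most with the fold-change limit. With a 2-fold limit, 4 of the 9 genes passed in place of 7 (Adra1a, Adra1b, Adra1d, and Grk5), 8 of the 81 genes in the lists in place of 22, and 803 of all genes in place of 1662. With no fold limit, 45 genes in the lists and 4484 of all genes passed. Without Ad-GFP sample 28, Adrb1 had a log2 fold change of 0.55, and 6 of the 9 genes passed. With each sample left out in turn, Adrb1 ranged from 0.55 to 0.74, the genes passing from 6 to 7 of the 9, from 19 to 24 in the lists, and from 1541 to 1769 of all genes, and the log2 difference of the β1 to α1 ratio from 1.80 to 2.00. When sample numbers entered as a replicate block, 7 of the 9 genes, 25 in the lists, and 1825 of all genes passed, and the block changed no call among the 9, with an adjusted p (limma) of 0.00230 for Adrb1 and 0.0983 for Arrb1. No log2 fold change of the 9 genes changed direction under any alternative run. The TPM scale and quantile normalization moved the median log2 fold change of all genes to -0.04 for both. Depth limits Arrb1 most, with 64 to 141 fragments per sample.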

Other observations

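After the group means were subtracted, the genes whose log2(FPKM + 0.1) was most like that of Grk5 over the 12 samples, among 8978 genes averaging 1 FPKM or more, were Raph1 (Pearson r = 0.996), Sh3tc1 (0.980), and Steap4 (0.970). Raph1 and Grk5 thus ordered the samples almost alike within each group, although Raph1 had a log2 fold change of -0.78 with Ad-h-NR4A2 and Grk5 one of 1.54. The genes most like Adra1b were Ankrd34a (0.897), Hpdl (0.893), and Sema3c (0.892), of which Sema3c had a log2 fold change of 0.92, opposite to Adra1b. Those most like Adrb1 were Trmt11 (0.859), Apopt1 (0.845), and Ydjc (0.845). Among the 9 members the highest value was that of Arrdc3 and Adra1b (0.889). These are the highest of many values and descriptions without a test, and the 12 samples are 6 pairs with shared numbers and 1 sequencing run.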
